A study of Mus musculus with 20 samples.

Results

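Lymphocyte homing and migration receptors are the chemokine, sphingosine-1-phosphate and oxysterol receptors with which lymphoid cells sense the signals that hold them in bone marrow, draw them into lymphoid tissue or release them into blood. The set held 7 genes, Cxcr4, Cxcr5, Ccr7, Ccr9, S1pr1, S1pr4 and Gpr183, taken by symbol from the 56239 gene rows of the count table and matched to their mouse Ensembl identifiers. Counts were found for 6 of the 7, and 5 of the 7 had enough reads to be tested (10 counts or more in 2 or more libraries), as did 16601 genes in all. Ccr7 was nearly without counts, and Gpr183 was without any in a place of the genome where genes were rarely counted, so neither was tested.

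The libraries were made from chromatin-associated RNA, which is RNA still bound to chromatin and so rich in transcripts being made, of B3, a mouse pre-B cell line. Every library came from B3 cells transduced by retrovirus with Ikaros-ERt2, a fusion of the transcription factor IKZF1 to an oestrogen receptor domain that moves into the nucleus when the ligand 4-hydroxytamoxifen (4-OHT) is given. The 0 h group had no treatment, and the other 9 groups were taken 30 min and 1, 2, 6, 12, 15, 18, 21 and 24 h after 500 nM 4-OHT, with 2 libraries in each of the 10 groups. No group without the fusion received 4-OHT among the samples used here, so that effects of IKZF1, of the ligand and of time in culture cannot be told apart, and the cells also carry their own Ikzf1 gene. The labels do not say that the replicates of a time point were separate cultures, so p-values measure only the spread between these libraries. In a bulk sample, more RNA per cell and more cells with that RNA cannot be told apart.

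CXCR4 is the receptor for CXCL12 made by bone marrow stroma and holds B cell progenitors there, and CXCR5, CCR7 and CCR9 guide lymphocytes to follicles, to T cell zones and to thymus and gut. S1PR1 draws cells toward the sphingosine-1-phosphate of blood and so out of marrow and lymphoid organs, whereas S1PR4 binds the same lipid and is found mostly on blood cells. GPR183 senses oxysterols and positions B cells at the edges of follicles. During B cell development in marrow, CXCR4 is high on the early stages, and the other receptors are known mainly from later stages.

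Total counts per library ran from 33296158 to 46868954 with a median of 40943260. Summed levels of 12 B lineage marker genes ran from 7843 to 16090 CPM (counts for each 1e6 mapped to genes, scaled by TMM factors) over the 20 libraries, with Rag1 and Rag2 at 0 counts and each inside another gene. Ebf1 made up most of that sum, at 9793 CPM at 0 h. Of the 10 markers tested 6 were up and 3 down at 24 h, beside 20% up and 20.1% down of all genes tested. Igll1 was at 169 and 0.985 CPM and Blnk at 25.1 and 512 CPM at 0 and 24 h. The sums of 7 T lineage, 6 myeloid and 4 erythroid markers stayed within 1.73 to 5.34, 0.678 to 2.18 and 0.129 to 0.578 CPM, and that of 3 plasma cell markers within 19.4 to 30.8 CPM. Xbp1 made up most of the plasma cell sum, at 21.6 CPM at 0 h, while Prdm1 and Sdc1 had at most 9 and 8 counts in a library. Ikzf1 itself was at 4842 ± 4.43 CPM at 0 h and 8804 ± 599 at 24 h (SD, n = 2), a log2 change of 0.86 that did not reach 2-fold, and reads of the fusion and of the cells' own gene cannot be told apart. Replicates of 12, 18 and 21 h differed more than the others, with a chi-square per degree of freedom of 9.95, 14.9 and 4.78, against 1.26 to 2.58 at the other 7 time points. All time points shared an estimate of the spread, so standard errors at 12, 18 and 21 h may be too small.

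The promoters of the receptors that rose are shown because IKZF1 binds DNA at motifs with the core GGGAA. RefSeq (GRCm38.p6) windows of 250 bases before to 50 after the start of the gene were at hand for 4 of the 7 genes, and those of 3 genes that rose are printed on the strand of the gene, with GGGAA on either strand (TTCCC) in capitals. They lie at chr1:128592250-128592549 on the minus strand for Cxcr4, chr9:123766961-123767260 on the plus strand for Ccr9 and chr10:81500088-81500387 on the minus strand for S1pr4. That of Ccr9 is at the RefSeq start, which lies well inside the longer GENCODE span over which its reads were counted or placed here.
Cxcr4: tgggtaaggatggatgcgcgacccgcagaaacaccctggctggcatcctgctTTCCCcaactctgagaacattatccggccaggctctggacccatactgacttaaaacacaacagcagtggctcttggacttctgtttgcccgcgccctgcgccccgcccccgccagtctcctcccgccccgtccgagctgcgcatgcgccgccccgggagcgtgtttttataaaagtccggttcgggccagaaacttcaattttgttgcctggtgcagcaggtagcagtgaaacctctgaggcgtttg
Ccr9: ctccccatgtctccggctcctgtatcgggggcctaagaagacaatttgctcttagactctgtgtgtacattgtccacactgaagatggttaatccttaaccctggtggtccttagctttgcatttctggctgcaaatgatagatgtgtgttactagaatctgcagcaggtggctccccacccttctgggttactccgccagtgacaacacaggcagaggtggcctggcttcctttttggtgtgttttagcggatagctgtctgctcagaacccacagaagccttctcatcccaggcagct
S1pr4: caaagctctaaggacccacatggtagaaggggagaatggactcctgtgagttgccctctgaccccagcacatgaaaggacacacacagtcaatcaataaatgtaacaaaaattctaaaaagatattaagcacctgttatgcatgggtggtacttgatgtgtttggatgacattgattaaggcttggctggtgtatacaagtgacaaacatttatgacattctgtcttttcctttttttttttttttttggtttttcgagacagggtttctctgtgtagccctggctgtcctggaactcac
The window of Cxcr4 held 1 match, at position -198 from the start, and those of Ccr9 and S1pr4 held none. The authors counted the shorter GGAA and GGGA on either strand as IKZF1 motifs. Those were not counted here, and the windows of Ccr9 and S1pr4 do hold such shorter motifs. Of all 32851 RefSeq promoter windows of this length, 62.7% held GGGAA on either strand and 25.6% held the longer TGGGAA, which contains it and which none of the 3 printed windows held. The window of Gpr183, a gene not measured here and so not printed, held 1 TGGGAA, at position -64. These windows differed in base composition, with 59.3% G and C at Cxcr4, 51.3% at Ccr9 and 41.0% at S1pr4.

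All 5 receptor genes tested rose during the time course, none fell at any time point, and they were first called at different times. A gene is said to have risen or fallen when edgeR's quasi-likelihood test gave a Benjamini-Hochberg adjusted p under 0.01 and the fitted change was over 2-fold. Over the whole course 5 of 5 were called, against 51.9% of all genes tested, and 26.7% of all genes were called down at some induced time point. S1pr1 passed the filter only through induced libraries, with 3 and 4 counts at 0 h, so it could hardly have been called down. Its place in these counts is thus partly fixed by the filter. Ccr9 is also counted among the 5, although the source of its reads is uncertain, as described below. At 30 min none of the 5 was called up (0.0542% of all genes), and at 1 h only S1pr1 was (2.33%). By 1 h Cxcr4, Cxcr5 and S1pr4 were at log2 0.59, 0.72 and 0.83, each with an adjusted p under 0.01 but short of 2-fold. The order of calls therefore depends on the 2-fold cut and is not the order of first change. The count was 2 at 2 h (S1pr1 and Ccr9, against 6.25% of all genes) and 3 at 6 h (S1pr1, Cxcr5 and S1pr4, against 10.9%). It was 4 at 12 and 15 h (all but Cxcr4, against 13.2% and 15.3%) and 5 at 18, 21 and 24 h (19.1%, 20.1% and 20%). Being up at all of the last 3 time points held for 5 of 5 receptors and 15.7% of all genes, whereas 20.1% of all genes were down at 24 h. The receptor set was chosen with earlier results of these data known. Its contrast with all genes is therefore a description and not independent support. The median log2 change of the 5 was 2.31 at 24 h, against -0.011 over all genes tested. With library totals in place of TMM factors every 24 h change was lower by 0.26 on the log2 scale and the share of calls that were up was 37.93% in place of 49.95%, yet the 5 receptors were still called, at 1.31 for Cxcr4, 2.02 for Cxcr5, 2.05 for Ccr9, 5.51 for S1pr1 and 2.42 for S1pr4.

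**Figure D1:**
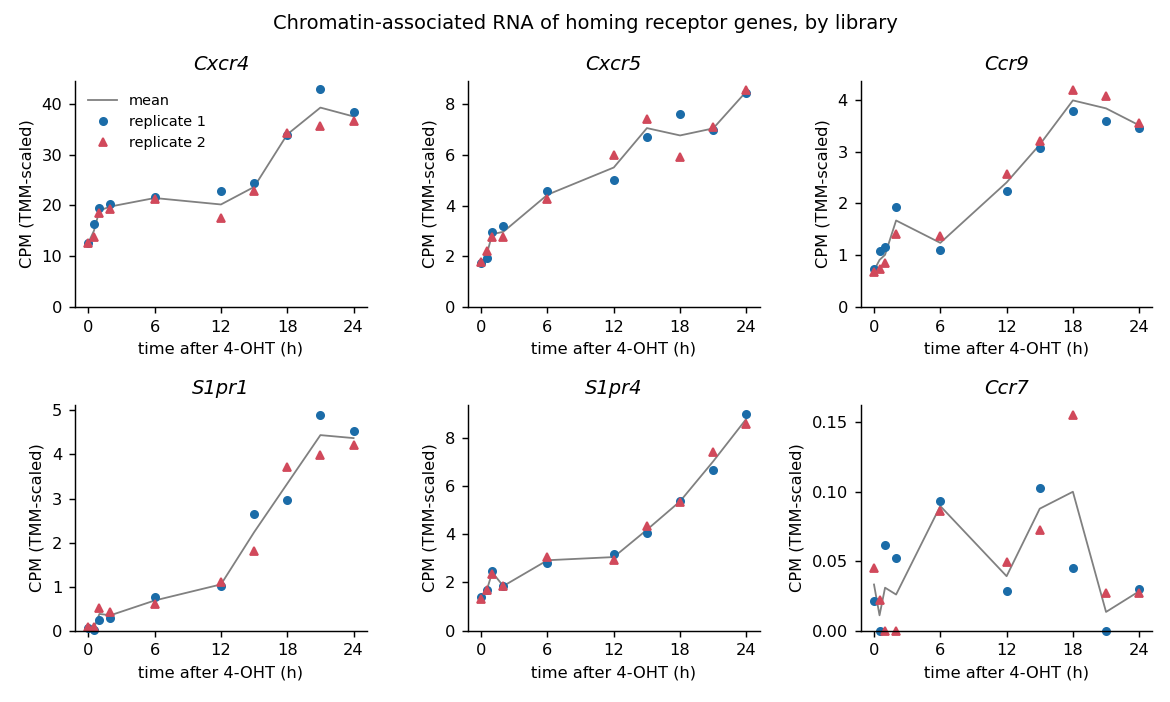
Level of 6 receptor genes (CPM with TMM scaling, vertical axis from 0) against hours after 4-OHT, with both replicates as points and a line through their mean. Cxcr4 stood between 17.6 and 24.4 CPM from 1 to 15 h and at 33.8 CPM or more from 18 h, S1pr1 and S1pr4 gained most of their CPM after 12 h, and Ccr7 never passed 0.155 CPM.

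Cxcr4 (ENSMUSG00000045382, GRCm38 chr1:128588199-128592293, minus strand) rose in steps and was called late. Its libraries read 12.6 and 12.7 CPM at 0 h, 16.3 and 13.7 after 30 min, 19.5 and 18.5 after 1 h, 20.3 and 19.3 after 2 h, and 21.6 and 21.3 after 6 h. They then read 22.8 and 17.6 CPM after 12 h, 24.4 and 22.9 after 15 h, 33.8 and 34.2 after 18 h, 43.0 and 35.6 after 21 h, and 38.4 and 36.7 after 24 h. Each library after 0 h stood above both of 0 h, those of 1 to 15 h lay within 17.6 to 24.4 CPM, and all from 18 h on lay above these. The log2 change was 0.59 after 1 h, 0.76 after 6 h and 0.90 after 15 h, each with an adjusted p under the threshold but less than 2-fold. It was 1.43 after 18 h, 1.63 after 21 h and 1.57 ± 0.0990 (SE) after 24 h, a 2.96-fold rise with an adjusted p of 3.15e-12. From 12 to 24 h the difference was 0.90 on the log2 scale (adjusted p = 4.52e-08), which is under 2-fold, and it was called when replicate 1 of 12 h was left out (log2 1.09). No other gene overlaps Cxcr4, and the nearest gene tested, Dars, lies 170.8 kb away and was at a log2 change of -0.56 at 24 h, not called.

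Cxcr5 (ENSMUSG00000047880, chr9:44511787-44561877, minus strand), the receptor for CXCL13, climbed from the first hours. The libraries read 1.73 and 1.78 CPM at 0 h, 1.92 and 2.23 after 30 min, 2.98 and 2.78 after 1 h, 3.18 and 2.75 after 2 h, and 4.60 and 4.27 after 6 h. Later they read 5.03 and 5.98 CPM after 12 h, 6.70 and 7.43 after 15 h, 7.63 and 5.92 after 18 h, 6.99 and 7.11 after 21 h, and 8.44 and 8.58 after 24 h. No library after 0 h overlapped 0 h, the libraries of 15, 18 and 21 h overlapped each other, and both of 24 h were above all the rest. The log2 change was 0.72 at 1 h (adjusted p = 0.000706, less than 2-fold), 1.34 after 6 h, 2.01 after 15 h and 2.28 ± 0.134 (SE) after 24 h, a 4.85-fold rise with an adjusted p of 8.64e-13. From 12 to 24 h it was 0.62, which was not called. The last 110 bp of the annotated gene overlap Bcl9l, which is transcribed toward Cxcr5 from the other strand and moved the other way, from 45.1 ± 0.119 CPM at 0 h to 21.6 ± 1.40 at 2 h (log2 -1.06, called) and 26.2 ± 1.94 at 24 h (log2 -0.79, not called). GENCODE gives Cxcr5 a span of 50.09 kb and RefSeq one of 14.66 kb, and the table does not tell in which part its reads lay.

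Ccr9 (ENSMUSG00000029530, chr9:123678439-123784330, plus strand), the receptor for CCL25, is given here as uncertain because of where its reads can have come from. Its libraries read 0.735 and 0.676 CPM at 0 h, 1.08 and 0.735 after 30 min, 1.16 and 0.860 after 1 h, 1.93 and 1.41 after 2 h, and 1.10 and 1.38 after 6 h. They read 2.24 and 2.57 CPM after 12 h, 3.07 and 3.20 after 15 h, 3.79 and 4.19 after 18 h, 3.60 and 4.07 after 21 h, and 3.46 and 3.56 after 24 h. The 2 h libraries were above those of both 1 h and 6 h, the highest were those of 18 and 21 h, and only the lower 30 min library came within 0.001 CPM of the higher one of 0 h. The gene was called at 2 h (log2 1.23 ± 0.221), not at 6 h (0.81 ± 0.231), and again from 12 h (1.77), with 2.49 at 18 h and 2.31 ± 0.193 at 24 h (adjusted p = 3.88e-10). The call at 2 h was lost without replicate 1 of 2 h (log2 1.00).

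Other annotated genes cover 52.7% of the 105.89 kb that GENCODE gives to Ccr9, and 94.4% of the 16.25 kb that RefSeq gives to it, which leaves 0.903 kb of the RefSeq gene to itself. Whether a read over 2 genes was counted matters here. Of 758 protein-coding genes that lie wholly inside a gene of the other strand, 753 (99.3%) had 0 counts in all 20 libraries, as did 433 of 435 (99.5%) inside a gene of the same strand, against 2644 of 20783 (12.7%) of the rest. Lztfl1, inside the upstream part of the GENCODE span of Ccr9, was among those at 0. AC165425.1, annotated on the other strand over most of the RefSeq gene and past its end, was counted apart from Ccr9 and went from 1.80 ± 0.0994 CPM at 0 h through 3.38 ± 0.426 at 2 h and 2.51 ± 0.110 at 6 h to 4.48 ± 0.184 at 24 h (log2 1.32, called). Fyco1, which starts downstream and runs toward Ccr9, was also called up at 24 h (62.2 to 128.9 CPM, log2 1.05), as was Slc6a20b on the other side (11.9 to 24.2 CPM, log2 1.02). Which of these units the reads counted for Ccr9 came from was not tested.

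**Figure D2:**
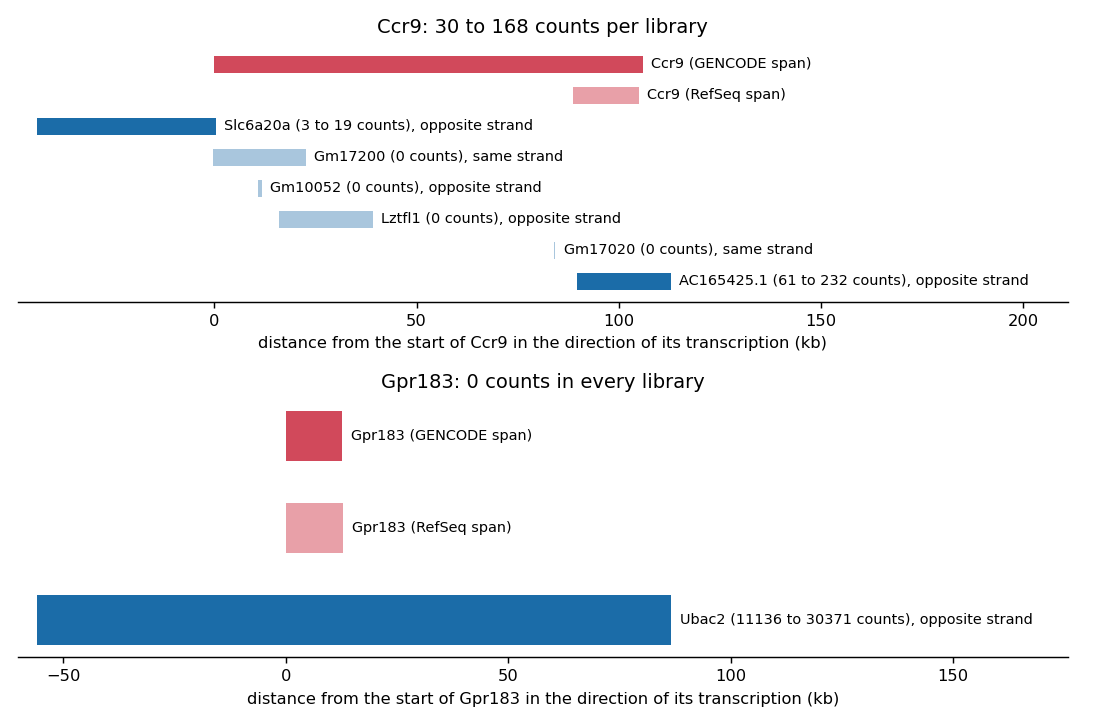
Annotated spans (bars) of Ccr9 and Gpr183 and of the genes that overlap them, in kb from the start of each receptor gene in its direction of transcription, with the range of counts per library for each overlapping gene. The RefSeq gene of Ccr9 lies almost wholly under AC165425.1, and Gpr183 lies wholly inside Ubac2, which had 11136 to 30371 counts.

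Ccr7 (ENSMUSG00000037944, chr11:99144196-99155077, minus strand), the receptor for CCL19 and CCL21, was at the limit of detection throughout. It had 38 counts in all 20 libraries together, from 0 to 6 in each, with 0 in 4 libraries and 3 or fewer in 16. The highest were 6 counts in replicate 2 of 18 h (0.155 CPM) and 4 in replicate 1 of 15 h (0.103 CPM) and in both libraries of 6 h, and 24 h had 1 in each library against 1 and 2 at 0 h. A floor of 3 counts was worth 0.0621 to 0.102 CPM, so a level under that is not detectable at this depth. The summed counts at 24 h over those at 0 h gave a ratio of 0.859 with an exact 95% interval from 0.0718 to 7.50, which covers counting error only and holds both a large rise and a large fall. No gene overlaps Ccr7, and of its neighbours Smarce1, 54.0 kb away, was not called at 24 h (log2 0.19), while Igfbp4, 89.8 kb away on the other side, was called down (3.47 ± 0.320 to 0.0705 ± 0.0154 CPM).

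S1pr1 (ENSMUSG00000045092, chr3:115710433-115715072, minus strand) had the largest change of the 5 and started from almost nothing. It had 3 and 4 counts at 0 h, 1 and 4 after 30 min, 12 and 21 after 1 h, 11 and 18 after 2 h, and 33 and 28 after 6 h. The counts were then 35 and 44 after 12 h, 103 and 75 after 15 h, 131 and 144 after 18 h, 144 and 147 after 21 h, and 152 and 155 after 24 h. The 30 min libraries overlapped 0 h, all later ones were above it, those of 1 and 2 h overlapped each other, and the 24 h libraries fell between the 2 of 21 h once scaled. In CPM the gene went from 0.0774 ± 0.0179 at 0 h through 0.352 ± 0.0915 at 2 h and 1.05 ± 0.0639 at 12 h to 4.37 ± 0.231 at 24 h (SD, n = 2). The fitted log2 change was 2.22 ± 0.600 (SE) at 1 h, 2.16 ± 0.616 at 2 h, 3.10 after 6 h, 3.72 after 12 h and 5.77 ± 0.340 after 24 h, with adjusted p-values of 0.00426, 0.00494, 1.99e-05, 5.48e-07 and 9.24e-13. The ratio of summed counts, scaled for depth, was 56.5 at 24 h with an exact 95% interval of 27.1 to 142, and 4.80 at 1 h with one of 2.09 to 12.9.

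The early calls of S1pr1 rest on few counts. At 1 h the call was lost without either 0 h library or without replicate 2 of 1 h (adjusted p up to 0.0811), and at 2 h without either 0 h library or replicate 2 of 2 h (up to 0.0599). From 6 h on the call did not depend on any single library of the time points compared. In CPM most of the rise came after 12 h, whereas on the log2 scale 3.72 of it was reached by 12 h and 2.05 ± 0.209 came between 12 and 24 h (adjusted p = 2.30e-08). The gene overlaps no other, and the nearest gene tested, A930005H10Rik, lies 166.5 kb upstream and was called up too (3.04 to 10.5 CPM, log2 1.78).

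S1pr4 (ENSMUSG00000044199, chr10:81497747-81500132, minus strand) was still climbing at the last time point. The libraries read 1.40 and 1.33 CPM at 0 h, 1.68 and 1.67 after 30 min, 2.48 and 2.36 after 1 h, 1.85 and 1.85 after 2 h, and 2.80 and 3.04 after 6 h. After that they read 3.16 and 2.94 CPM after 12 h, 4.04 and 4.32 after 15 h, 5.37 and 5.35 after 18 h, 6.65 and 7.38 after 21 h, and 8.98 and 8.58 after 24 h. All libraries after 0 h were above 0 h, those of 2 h were below those of 1 h, those of 6 and 12 h overlapped, and each time point from 15 h on lay wholly above the one before. The log2 change was 0.83 at 1 h and 0.44 at 2 h, neither called, then 1.09 at 6 h, 1.15 at 12 h, 1.97 at 18 h and 2.68 ± 0.104 (SE) at 24 h (adjusted p = 5.89e-16), a 6.40-fold rise. From 12 to 24 h it rose by a log2 of 1.53 ± 0.0932 (adjusted p = 4.86e-12). S1pr4 and S1pr1 were the 2 receptors called between these times, against 6.43% of all genes, and 4 receptors, all but Cxcr4, were called between 2 and 24 h, against 16.2%. Of these, Ccr9 was at 2.12-fold between 2 and 24 h and lost its call without replicate 2 of 2 h and with library totals in place of TMM factors, each of which left 3.

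Close neighbours of S1pr4 moved the other way. Gna15, a G protein alpha subunit gene that ends 2.2 kb before S1pr4 begins and is transcribed toward it on the same strand, stood at 40.2 ± 0.849 CPM at 0 h and had fallen to 15.9 ± 0.542 after 30 min and 5.52 ± 0.0880 after 2 h (log2 -2.86). By 24 h it had come back to 14.1 ± 0.646 CPM, called down against 0 h (log2 -1.50) and up against 2 h (log2 1.36). Ncln, 1.4 kb beyond the end of S1pr4, was at 44.9 ± 1.24 CPM at 0 h, 17.2 ± 1.58 at 18 h (log2 -1.39, called) and 24.8 ± 1.07 at 24 h (log2 -0.86, not called). Gene bodies here do not overlap, and how many reads past the end of Gna15 were counted for S1pr4 was not tested.

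Gpr183 (ENSMUSG00000051212, chr14:121952551-121965195, minus strand) had 0 counts in all 20 libraries. It lies wholly inside Ubac2, a gene of the other strand with 11136 to 30371 counts per library, which is the position in which 99.3% of protein-coding genes had 0 counts. Its zeros therefore set no limit on its level, and it is given as not measured.

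**Figure D3:**
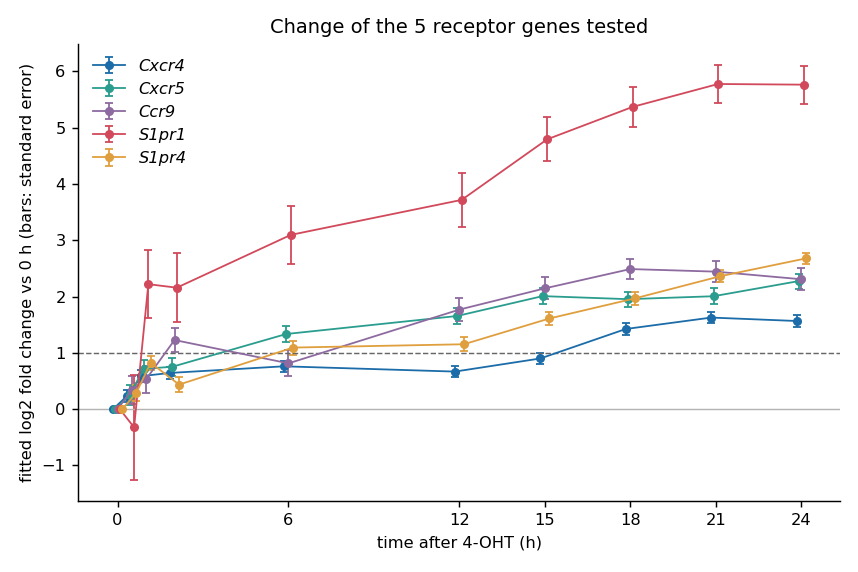
Fitted log2 fold change against 0 h (vertical axis, bars show 1 standard error) of the 5 receptor genes tested, against hours after 4-OHT, with points shifted slightly sideways for clarity. The dashed line marks 2-fold, which S1pr1 passed at 1 h and Cxcr4 at 18 h, and at 24 h S1pr1 stood at 5.77 and the others between 1.57 and 2.68.

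Cxcr5 crossed the midpoint of its log2 change earlier than Cxcr4 and S1pr4 did. The half-maximal time, at which the interpolated log2 CPM first crossed the midpoint between 0 h and the extreme, was 4.68 h for Cxcr5 (4.02 and 5.22 h in replicates 1 and 2 alone) and 6.38 h for S1pr1 (5.61 and 7.77 h). It was 13.3 h for S1pr4 (13.5 and 13.1 h) and 13.9 h for Cxcr4 (13.0 and 14.3 h), and these 2 did not differ beyond their replicates, nor did the ranges of Cxcr5 and S1pr1 lie apart by more than 0.4 h. For Ccr9 it was 8.86 h from the mean, but 1.73 and 8.02 h in single replicates, because replicate 1 passed the midpoint already at 2 h. The time of Cxcr4 rests on a plateau near its midpoint and is poorly fixed. Its log2 change was 0.76 ± 0.102 (SE) at 6 h, 0.67 at 12 h and 0.90 at 15 h, against 1.63 at 21 h. At 1 h Cxcr4 was at 0.59 and Cxcr5 at 0.72, so the gap does not mean that Cxcr4 began to rise later. The order depends on the scale, since on linear CPM the times were 9.90 h for Cxcr5, 11.7 h for Ccr9, 15.1 h for S1pr1, 15.7 h for Cxcr4 and 17.3 h for S1pr4.

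Levels of different genes were compared per kb of gene span, as intron reads were counted. Cxcr4 was highest at 0 h, with 3.09 ± 0.00673 CPM per kb, followed by S1pr4 at 0.573 ± 0.0224, Cxcr5 at 0.0350 ± 0.000714, S1pr1 at 0.0167 ± 0.00385 and Ccr9 at 0.00666 ± 0.000394. At 24 h the order was Cxcr4 at 9.16 ± 0.286, S1pr4 at 3.68 ± 0.119, S1pr1 at 0.942 ± 0.0497, Cxcr5 at 0.170 ± 0.00193 and Ccr9 at 0.0331 ± 0.000641. Neighbours in each order were apart by more than their SDs. An SD of 2 libraries does not measure counting error, and S1pr1 at 0 h had only 3 and 4 counts, close to the floor. By 24 h S1pr1 stood above Cxcr5 per kb of span, but per kb of annotated exon it did not, at 1.44 ± 0.0758 against 2.55 ± 0.0290 CPM per kb. The last places at 0 h also depend on the length used, since per kb of annotated exon Ccr9 stood above S1pr1 (0.0687 ± 0.00407 against 0.0254 ± 0.00586), and per kb of span in no other gene Ccr9 was at 0.0141, within the spread of S1pr1. Ccr7 stood at 0.00306 ± 0.00152 at 0 h and 0.00262 ± 0.000174 at 24 h per kb of span, from counts at the floor.

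Many genes followed the same courses. Among 5774 genes called over the time course with at least 1 CPM on average, the log2 CPM over the 20 libraries, which share 10 time points, had a Pearson r above 0.9 with 773 genes for Cxcr4, 1468 for Cxcr5, 990 for Ccr9, 1450 for S1pr1 and 1271 for S1pr4. The closest were Cpeb2, Zfyve16 and Fbxo33 for Cxcr4 (r from 0.976 to 0.979) and Cerk, the ceramide kinase, Phf2 and Ikbke for Cxcr5 (0.990 to 0.993). For Ccr9 they were Cage1, 4931428L18Rik and Dnm3 (0.973 to 0.979), for S1pr1 Gm8221, Casp6 and Cog6 (0.985 to 0.989), and for S1pr4 Ttc5, Mylip and Acbd3 (0.991 to 0.992). Between the receptors themselves r ran from 0.873 for Cxcr4 with Cxcr5 to 0.961 for Cxcr5 with S1pr1.

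Other receptors of leukocyte migration moved in both directions. Of 30 further receptor genes listed, 14 were tested, and of these 3 were up and 4 down at 24 h, as at 2 h, with a median log2 change of -0.56 at 24 h. Over all genes tested, 6.25% were up and 6.91% down at 2 h, and 20% up and 20.1% down at 24 h with a median of -0.011. Of the 16 not tested, 4 lie inside another gene. Ccr2, the receptor for CCL2 known from monocytes, fell the most, from 29.2 ± 0.129 CPM at 0 h through 11.6 ± 0.793 at 2 h to 1 count in each library at 24 h. Its summed counts were 2645 at 0 h and 2 at 24 h, a ratio scaled for depth of 0.000974 with an exact 95% interval from 0.000118 to 0.00352. P2ry10 and Gpr174, receptors for lysophosphatidylserine, rose from 14.1 ± 0.101 to 139 ± 2.30 CPM (log2 3.30) and from 36.9 ± 0.706 to 172 ± 3.60 CPM (log2 2.22) at 24 h. Both were already called up at 2 h, at log2 2.41 and 1.23, when Cxcr4, Cxcr5 and S1pr4 were not. S1pr2, which restrains migration where S1PR1 promotes it, fell at 2 h (log2 -1.04) and was at log2 0.50 at 24 h, not called.

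**Figure D4:**
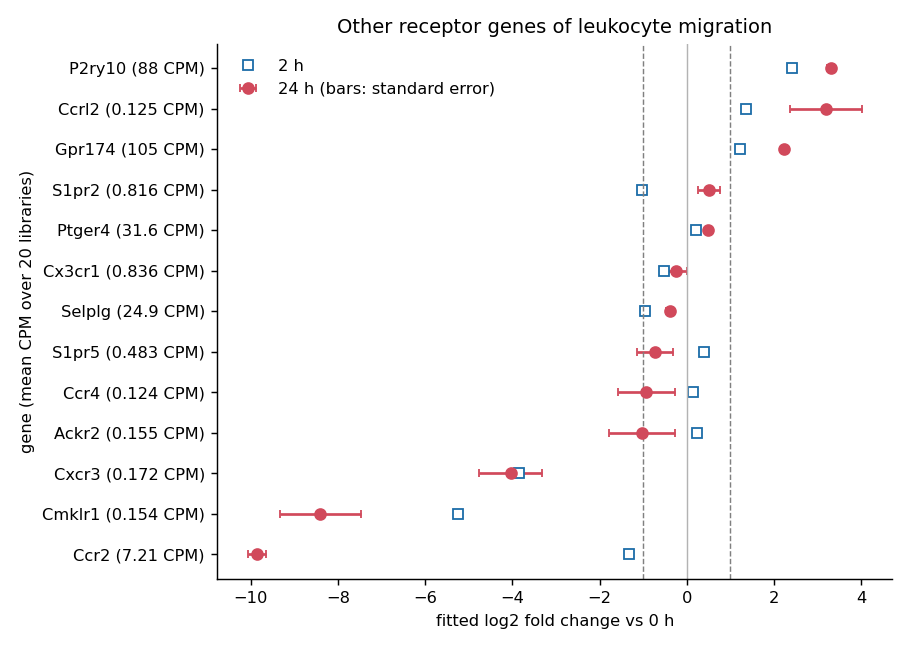
Fitted log2 fold change against 0 h of other receptor genes tested, at 24 h (filled circles, bars show 1 standard error) and 2 h (open squares), with the mean CPM over 20 libraries beside each name and dashed lines at 2-fold. P2ry10 and Gpr174 rose at both times, and Ccr2 and Cmklr1 are drawn at fitted values that depend on the prior count, since Ccr2 had 1 count and Cmklr1 had 0 in each 24 h library.

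Of 18 genes listed for the ligands of these receptors and for the proteins that make, carry or break them down, 10 were tested, with 0 up and 2 down at 2 h and 1 up and 3 down at 24 h (median log2 -0.47), beside shares of all genes of 6.25% up and 6.91% down at 2 h and 20% and 20.1% at 24 h. Cxcl12 and Cxcl13, the ligands of CXCR4 and CXCR5, did not pass the filter, and Ccl19 and Ccl21a, those of CCR7, lie inside a gene of the other strand and are given as not measured. Ccl25, the ligand of CCR9, was at 94.0 CPM at 0 h and 81.3 at 24 h (log2 -0.21, not called). Sgpp2, a sphingosine-1-phosphate phosphatase, fell from 18.2 ± 0.0662 to 4.05 ± 0.575 CPM (log2 -2.17), and Mfsd2b, which exports sphingosine-1-phosphate from blood cells, fell from 5.25 ± 0.0913 to 1.60 ± 0.147 (log2 -1.72). The 1 gene called up was Cyp27a1, at log2 2.64 with at most 0.507 CPM in the 24 h libraries.

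Signalling genes downstream of the receptors were mostly within 2-fold at 2 and 24 h. Over the whole course 12 of the 26 tested were called, beside 51.9% of all genes. Of 29 listed and 26 tested, 3 were up and 3 down at 2 h, where 6.25% of all genes were up and 6.91% down. At 24 h 5 were up and 1 down, with a median log2 of 0.03, where 20% of all genes were up and 20.1% down. The G protein genes Gnai2 and Gnai3, which couple chemokine receptors to migration, were at log2 0.11 and 0.47 at 24 h, not called, while the gamma subunit gene Gng2 rose from 0.385 ± 0.0979 to 6.77 ± 1.05 CPM (log2 4.12). Among RGS genes, whose products shorten G protein signals, Rgs16 rose from 0.474 ± 0.0329 to 4.90 ± 0.246 CPM (log2 3.36) and Rgs3 fell from 35.7 ± 0.312 to 7.27 ± 0.119 (log2 -2.29). Grk2, a kinase that desensitizes chemokine and sphingosine-1-phosphate receptors, was up at 24 h (log2 1.20). Gnb2, which is broadly expressed, was listed at 0 in all libraries.

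The machinery of migration was tested for all 25 genes listed, with 0 up and 1 down at 2 h, beside 6.25% up and 6.91% down of all genes. At 24 h 6 were up and 1 down (median log2 0.15), beside 20% up and 20.1% down of all genes. Rhoh, a GTPase of blood cells that lacks GTP hydrolysis, rose from 142 ± 1.39 to 1168 ± 14.5 CPM (log2 3.04), and Stk4, a kinase needed for integrin-dependent adhesion and egress, from 379 ± 2.09 to 1361 ± 4.51 (log2 1.84). Rasgrp3, an exchange factor for Ras and Rap, was the 1 that fell, from 31.0 ± 0.869 to 15.4 ± 0.825 CPM (log2 -1.01) at 24 h and lower still at 2 h (log2 -2.69). Genes listed as regulators of egress gave 2 up and 1 down of 5 at 24 h, and 1 up (Bach2) and 1 down (S1pr2) at 2 h. These are too few to set against the same shares. S1pr2, itself a receptor, is also counted with the other receptors above. Foxo1, whose product activates homing receptor genes in lymphocytes, rose from 1095 ± 0.583 to 7268 ± 38.2 CPM (log2 2.73), and Bach2 from 507 ± 2.41 to 5658 ± 220 CPM (log2 3.48). Cd69, whose product binds S1PR1 and removes it from the surface, fell from 120 ± 3.06 to 48.6 ± 15.0 CPM (log2 -1.31). Klf2, a known activator of S1pr1, stayed low, at 0.317 ± 0.193 CPM at 0 h and 0.411 ± 0.0329 at 24 h (log2 0.36, adjusted p = 0.426).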

How the data were processed

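Chromatin-associated RNA was sequenced from directional libraries after rRNA depletion. The authors aligned reads to mouse GRCm38 and counted them per gene with featureCounts, introns included, and deposited raw counts without normalization for all 20 libraries. Which annotation was used, whether strand was used and what became of reads over several genes are not given in the sources used here. Nearly all genes inside another gene had 0 counts on either strand, as reads over 2 genes would if dropped. Of 56239 gene rows, 55240 were found in GENCODE M21, which gave positions and lengths. Time points came from the sample titles.

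The 16601 genes that reached 10 counts in 2 or more libraries were fitted with edgeR 4.0.16 in R 4.3.3, using TMM factors and 1 model of all 20 libraries with the 10 time points as levels, and tested by quasi-likelihood. Benjamini-Hochberg adjustment ran over all genes tested, and a call needed an adjusted p under 0.01 and a change above 2-fold. Tested on simulated data with changes at 24 h only, the fit recovered most of the known changes and called no unchanged gene. The simulation gave each gene the same spread at all time points. It therefore does not cover the wider spread at 12, 18 and 21 h. CPM used TMM-scaled library sizes, values are means ± SD (n = 2), and log2 changes carry standard errors where given. Count ratios have exact conditional binomial intervals. These used counts summed over both libraries of a time point, so they cover counting error only and not the spread between libraries. The reads carry no molecular identifiers, so duplicate reads could be counted too. The receptor genes and the gene lists were chosen with earlier results of these data known. From each list, up to 2 genes with the largest rise and fall at 24 h were named among those called and averaging at least 0.5 CPM. Ccl25, Cmklr1, Cyp27a1, Gnai2, Gnai3, Gnb2, Grk2, Klf2 and S1pr2 were added after their values were seen. A few genes of the lists enter the counts and are not reported here by name. Alternatives were DESeq2 1.42.0, its size factors, library totals, other filters and thresholds, a replicate block and each library left out.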

Additional observations from a re-analysis of the deposited data

How the results depend on the processing

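All 5 receptors were called over the time course and at 18, 21 and 24 h under every alternative run that kept them, including DESeq2 and the fit with the replicate block, where 5 were called at 24 h. A filter of at least 10 counts in every library dropped S1pr1 and left 4. Labels give replicate numbers, but same-numbered libraries did not in general deviate in the same direction (r from -0.454 to 0.249 over 45 pairs of time points, median 0.0147, 3 above 0.1). At the lowest r they deviated in opposite directions, which a block by replicate number does not model. The block changed no call of a receptor. Leaving out each library in turn gave 0 to 1 receptors up at 1 h, 1 at 2 h and 2 to 3 between 12 and 24 h. With the filter that dropped S1pr1, 0 were up at 1 h, 1 at 2 h and 1 between 12 and 24 h, and a test against 2-fold itself gave 0 at 1 h, 0 at 2 h and 1 at 6 h. S1pr1 at 30 min turned from a log2 of -0.32 to 0.20 without replicate 1 of 30 min (range -1.41 to 0.20 with each library left out), not called. On linear CPM the half-maximal times were 15.7 h for Cxcr4, 9.90 h for Cxcr5, 15.1 h for S1pr1 and 17.3 h for S1pr4. On log2 CPM that of Ccr9 was 1.73 h in replicate 1 alone. Per kb of annotated exon the 24 h levels were 20.8 CPM for Cxcr4, 2.55 for Cxcr5, 0.342 for Ccr9 and 1.44 for S1pr1, and Ccr9 was at 0.0700 per kb of the span in no other gene, a length chosen after seeing the data. Library totals in place of TMM factors lowered log2 changes by 0.13 at 18 h, 0.23 at 21 h and 0.26 at 24 h and moved the split at 24 h from 3323 up and 3329 down to 2603 up and 4260 down. With 2 libraries per time point and few counts at 0 h, depth limits S1pr1 before 6 h and Ccr7 throughout.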
